A study of Mus musculus with 4 samples.

Results

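The ligands and receptors of the PDGF, VEGF, HGF and angiopoietin systems were examined in cultured mesenchymal cells of the mouse hair follicle. Members were the 10 genes whose symbol in the deposited count table was Pdgfa, Pdgfc, Pdgfd, Pdgfra, Pdgfrb, Vegfa, Vegfb, Vegfc, Hgf or Angpt1, out of 51826 gene IDs. All 10 passed the filter on low values, a mean count of 10 or more, which kept 16734 genes.

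These are paracrine systems in which a secreted factor binds a receptor tyrosine kinase on a neighbouring cell. PDGF dimers bind PDGFRA and PDGFRB, the receptors that mark and drive mesenchymal cells, and PDGFRA signalling supports the dermal cells of the follicle. VEGF ligands act mainly on blood and lymphatic endothelium, HGF acts through MET on epithelial cells, and angiopoietin 1 acts through TIE2 to stabilise vessels. Dermal papilla cells are known as a source of VEGF and HGF for the perifollicular vessels and the hair matrix.

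Libraries were made from dermal papilla cells (DPCs), which lie in the hair bulb, and dermal sheath cells (DSCs), which line the follicle from outside. Cells of each type were sequenced at passage 3 (P3, low passage) and at passage 9 (P9, high passage), as 1 library per combination and 4 libraries in all. Per the study's methods, every culture came from the whisker follicles of EGFP-transgenic C57BL/6J mice aged 5 to 6 weeks, whereas the labels give the genotype as WT. All cells were expanded in DMEM, which by the study's methods held fetal bovine serum, without any other treatment named in the labels. The number of animals behind a culture was not given in the sources used here. With no replicates, none of the differences below has a replicate check, and passage cannot be told apart from differences between single cultures or library preparations. Intervals are 95% counting intervals for 2 libraries and cover counting error only.

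Total counts lay between 34981284 and 47604059, and the counts of single members ran from 6, for Hgf in P3 DPCs, to 62810, for Pdgfrb in P3 DSCs. The labelled cell types were checked against markers. The sheath marker Acta2, the contractile actin, had 7127 CPM (counts scaled to library size) in P3 DPCs, 1872 in P9 DPCs, 5731 in P3 DSCs and 4333 in P9 DSCs, and so did not set DSCs apart from DPCs. The 6 fibroblast markers summed to 17008, 5591, 25301 and 22528 CPM in the same order, with Lum at 0 counts in P9 DPCs and P3 DSCs. P9 DPCs thus stood apart from the other libraries, and their sheath markers were also lowest, at a sum of 3988 CPM against 7032 or more. The passage change in DPCs and the comparison of cell types at P9 rest on that library, and with 1 library per group they cannot be given without it, whereas the passage change in DSCs and the comparison at P3 do not use it. Of the papilla markers, Sox2 was higher in DPCs, with 1677 and 1491 counts at P3 and P9 against 269 and 178 in DSCs, and Lef1 was higher in DPCs only at P3, with 508 against 101 counts, and lower at P9, with 2 against 55. Hey1 had 85 and 72 counts in P3 DPCs and DSCs and 6 and 44 at P9, Alpl, Lepr and Corin had at most 23 counts in any library, and Ncam1 was higher in DSCs. The 10 papilla markers summed to 397 and 353 CPM in P3 and P9 DPCs and to 644 and 771 CPM in DSCs, so that as a list they did not mark out DPCs. The 7 keratinocyte markers summed to between 1.31 and 2.07 CPM, with Krt5, Krt14, Krt15 and Cdh1 at 0 counts throughout and Krt10 at no more than 61. The 8 endothelial markers summed to between 1.90 and 6.60 CPM, and the 6 immune markers to between 63.1 and 160.1 CPM, mostly from Lyz2.

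Hgf, Pdgfd and Pdgfra were the members at least 2-fold higher at P9 in both cell types, and their upstream windows are shown for that reason. Each window is the 250 bases before the RefSeq start on the plus strand of GRCm38.p6, at chr5:16553245-16553494 for Hgf, chr9:6168236-6168485 for Pdgfd and chr5:75152001-75152250 for Pdgfra. Capitals mark the only match, on either strand, to 4 promoter motifs, the TATA motif TATAAA, the CCAAT box, the GC box GGGCGG and the core of the hypoxia response element, ACGTG. None of these 4 motifs contains another.
Hgf: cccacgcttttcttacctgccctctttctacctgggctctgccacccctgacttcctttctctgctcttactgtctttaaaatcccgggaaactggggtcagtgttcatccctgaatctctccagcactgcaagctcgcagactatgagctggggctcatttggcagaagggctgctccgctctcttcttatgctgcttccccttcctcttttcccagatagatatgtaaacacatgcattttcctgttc
Pdgfd: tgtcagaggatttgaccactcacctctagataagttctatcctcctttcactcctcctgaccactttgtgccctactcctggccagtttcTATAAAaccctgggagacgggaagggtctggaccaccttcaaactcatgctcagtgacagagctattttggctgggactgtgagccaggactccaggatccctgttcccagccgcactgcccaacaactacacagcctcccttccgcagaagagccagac
Pdgfra: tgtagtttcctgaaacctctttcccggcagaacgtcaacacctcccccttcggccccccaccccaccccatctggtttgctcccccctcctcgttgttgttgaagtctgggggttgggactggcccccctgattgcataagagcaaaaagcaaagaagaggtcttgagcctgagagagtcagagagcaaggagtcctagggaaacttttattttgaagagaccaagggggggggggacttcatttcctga
RefSeq windows were matched for 8 members, with Angpt1 not matched and Pdgfrb not analysed here. The TATAAA in the Pdgfd window began 160 bases upstream of the start, and 12.4% of the 32851 windows in the table held this motif. CCAAT was held by 33.8%, GGGCGG by 32.7% and ACGTG by 16.6% of all windows. The windows shown had 3 or 4 CpG dinucleotides, below the median of 6 over all windows. A second Hgf window, at chr5:16553651-16553900, had 5, and the Pdgfc window had 3. The windows of Vegfb and Vegfc had 26 and 30, both windows of Pdgfa had 19 and 28, and both of Vegfa had 11 and 7.

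The first comparison was that of P9 with P3 within each cell type, since the study asked what changes in these cells on expansion. Hgf was the only member past the study's 4-fold threshold, and it was higher at P9 in both DPCs and DSCs. Over all tested genes, 5.58% were 4-fold higher and 4.36% 4-fold lower in DPCs, 2.67% and 1.16% in DSCs, and 1.27% were 4-fold higher in both. At a 2-fold threshold, Pdgfd, Pdgfra and Hgf were higher in DPCs and Pdgfc and Vegfc lower, against 16.1% and 15.0% of all tested genes. In DSCs the same members were 2-fold higher, against 8.55% of genes, and 0 members were 2-fold lower, against 6.21%. Thus 3 of 10 members were 2-fold higher in both cell types, where 4.86% of all genes were. From the deposited FPKM these were fewer, since Pdgfra in DSCs had a change of 0.89 with a pseudocount of 0.1 and 0.86 with a pseudocount of 1, and Hgf in DPCs had 0.63 with the latter, which left Pdgfd alone. The median change of the 10 members was 0.18 in DPCs and 0.35 in DSCs on the log2 scale, beside medians of 0.03 and 0.00 over all tested genes.

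**Figure D1:**
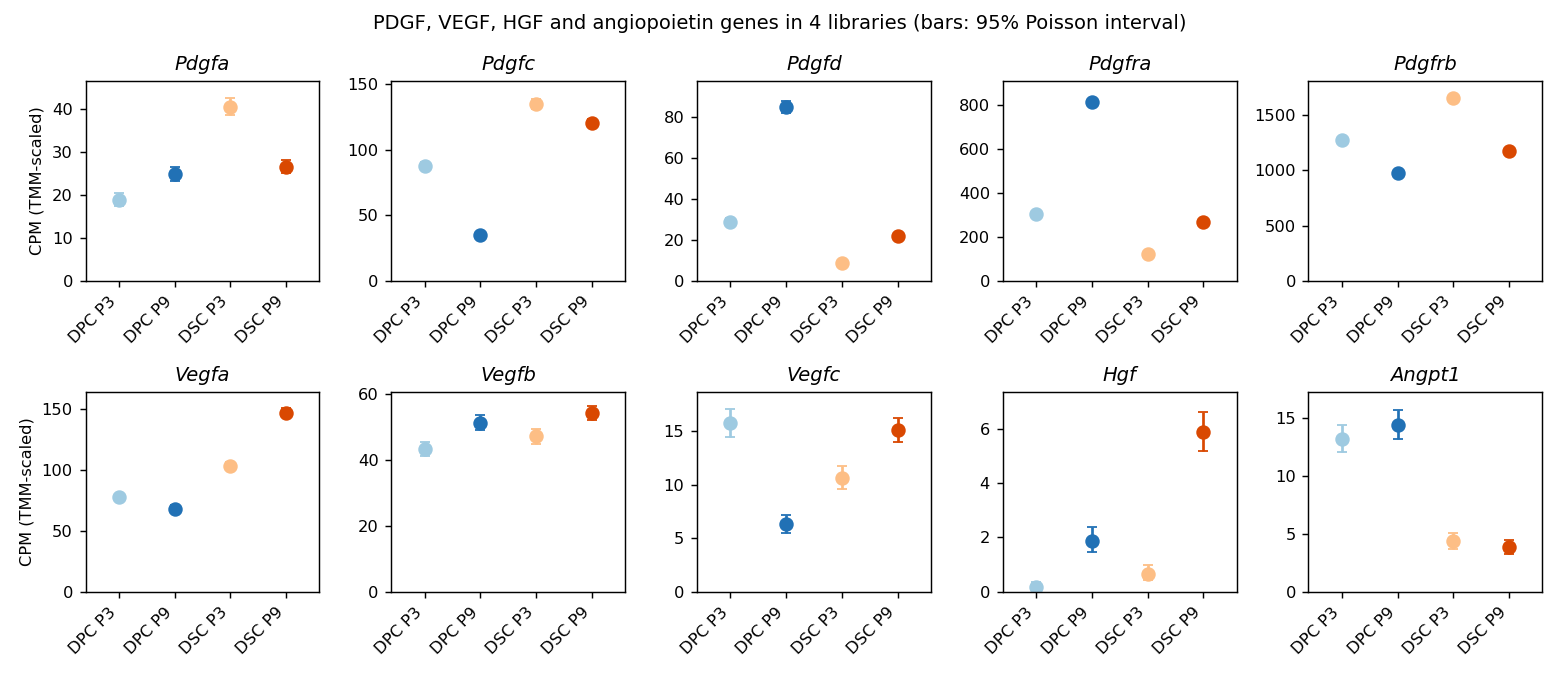
Scaled CPM of the 10 genes in each of the 4 libraries, each panel with its own axis from 0; bars are 95% Poisson intervals of the count. Pdgfd and Pdgfra are highest in P9 DPCs, Hgf is highest in P9 DSCs, and Vegfb lies between 43.3 and 54.3 CPM in all libraries.

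Hgf, the scatter factor that acts on epithelial cells (chr5:16553495-16620152, GRCm38), had 6 counts in P3 DPCs, 67 in P9 DPCs, 25 in P3 DSCs and 267 in P9 DSCs. These correspond to 0.163, 1.87, 0.660 and 5.86 CPM. Both P9 libraries lay above both P3 libraries. The scaled ratio of P9 to P3 was 11.5 in DPCs and 8.89 in DSCs, and with the prior count the log2 fold change was 3.16 (interval 2.32 to 5.01) and 3.06 (2.56 to 3.81). The passage changes of the cell types differed by 0.11 on the log2 scale, with an interval from -1.24 to 1.45. Among the members, Hgf ranked last or next to last in each library (FPKM are fragments scaled to transcript length and library size, so that levels of different genes can be compared). It had 0.043 FPKM in P3 DPCs, above 11.3% of all genes with a nonzero FPKM in that library. In P9 DSCs it had 1.67 FPKM, above 51.4% of such genes. In bulk libraries such as these, a change in the share of expressing cells and a change in RNA per cell cannot be told apart. On the FPKM scale with a pseudocount of 1, which compresses low levels, Hgf no longer passed 4-fold, at 0.63 in DPCs and 1.20 in DSCs. The 6 immune markers summed to 111 and 63.1 CPM in P3 and P9 DPCs and to 160.1 and 90.2 CPM in P3 and P9 DSCs, and their part in the Hgf result was not tested.

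Of the PDGF ligands, Pdgfd was 2-fold higher at P9 in both cell types, whereas Pdgfc was 2-fold lower at P9 in DPCs. Pdgfd encodes a ligand secreted as a latent dimer that binds mainly PDGFRB (chr9:6168584-6378850). It had 28.9 CPM in P3 DPCs, 85.1 in P9 DPCs, 8.87 in P3 DSCs and 22.0 in P9 DSCs. Both DPC libraries were above the DSC library of either passage. The log2 fold change with passage was 1.56 (1.46 to 1.66) in DPCs and 1.31 (1.13 to 1.50) in DSCs.

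Pdgfc, another latent ligand, which binds mainly PDGFRA (chr3:81036416-81214040), had 87.6 CPM in P3 DPCs, 35.1 in P9 DPCs, 134.5 in P3 DSCs and 120.2 in P9 DSCs. P9 DPCs were the low library. The change was -1.32 (-1.42 to -1.23) in DPCs and -0.16 (-0.22 to -0.11) in DSCs, a difference of -1.16 between cell types with an interval from -1.27 to -1.05. Pdgfa, which encodes a ligand that binds PDGFRA (chr5:138976014-138997370), had 18.9 and 24.8 CPM in P3 and P9 DPCs and 40.5 and 26.5 CPM in P3 and P9 DSCs. Its change was 0.39 (0.25 to 0.54) in DPCs and -0.61 (-0.72 to -0.50) in DSCs. Of the exonic bases of Pdgfa, 26.1% overlap the opposite-strand gene 6330403L08Rik, which had between 575 and 1032 counts, and since the use of strand in counting was not given, the reads of the pair cannot be separated.

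The make-up of the PDGF ligand pool differed between libraries while its sum stayed between 47.0 and 59.6 FPKM. Pdgfc made up 55.4% of the summed FPKM of Pdgfa, Pdgfb, Pdgfc and Pdgfd in P3 DPCs and 19.1% in P9 DPCs. Pdgfd took the opposite course, from 19.6% to 53.3%. In DSCs Pdgfc remained the most abundant, at 56.7% at P3 and 62.4% at P9, and Pdgfd went from 4.43% to 12.4%. Pdgfb, which is best known from endothelium and platelets, made up 4.03% or less in every library.

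**Figure D2:**
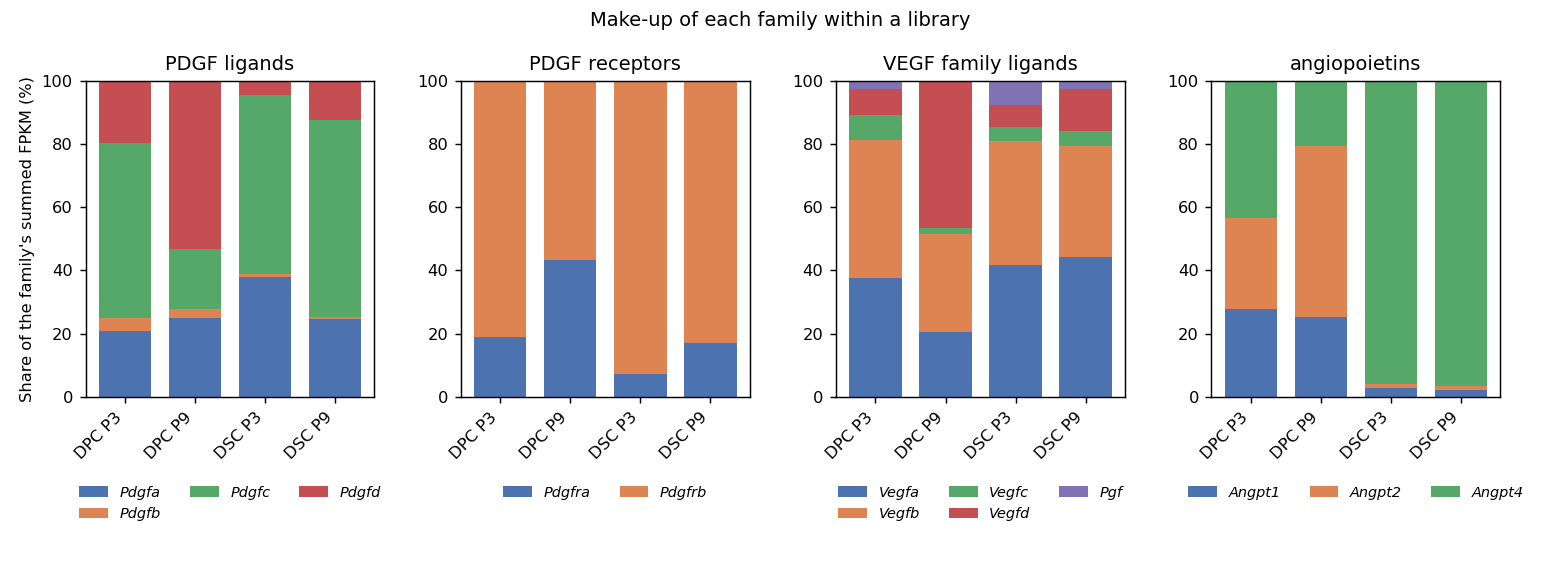
Stacked shares, in percent of the summed FPKM of a family within a library, for PDGF ligands, PDGF receptors, VEGF family ligands and angiopoietins in the 4 libraries. Pdgfc gives way to Pdgfd in P9 DPCs, the Pdgfra share is larger at P9 in both cell types, and Vegfd takes up 46.5% of the VEGF ligand pool in P9 DPCs.

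Both PDGF receptors were well expressed, and their balance differed with passage and cell type. Pdgfra (chr5:75152292-75198215) had 303.8 CPM in P3 DPCs, 811 in P9 DPCs, 121 in P3 DSCs and 266 in P9 DSCs. It was higher at P9 within each cell type and higher in DPCs within each passage. The change with passage was 1.42 (1.39 to 1.45) in DPCs and 1.14 (1.09 to 1.19) in DSCs. Pdgfrb, on chromosome 18, had the highest FPKM of the members in every library, between 165 and 266. This placed it above 98.7% or more of all genes with a nonzero FPKM in that library. Its level was 1272 CPM in P3 DPCs, 976 in P9 DPCs, 1657 in P3 DSCs and 1179 in P9 DSCs. The change with passage, -0.38 in DPCs and -0.49 in DSCs, was in the opposite direction to that of Pdgfra and well under 2-fold. Pdgfra therefore made up 18.8% of the summed receptor FPKM in P3 DPCs and 43.3% in P9 DPCs, and 7.23% and 17.2% in P3 and P9 DSCs.

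The latent ligands need a protease, and the genes for theirs differed with passage in opposite directions. Plat, which encodes tissue plasminogen activator, the activator of PDGF-C, had 3352 counts in P3 DPCs, 67277 in P9 DPCs, 1876 in P3 DSCs and 9005 in P9 DSCs. Its log2 fold change was 4.36 (4.31 to 4.41) in DPCs and 2.0 (1.93 to 2.07) in DSCs, the latter just under the 4-fold threshold. Plau, which encodes urokinase, an activator of PDGF-D, had 1647, 203, 655 and 642 counts in the same order. Its change was -2.97 (-3.20 to -2.77) in DPCs and -0.29 (-0.45 to -0.13) in DSCs. In P9 DPCs, then, the library with the most Pdgfd had the least Plau, and among DPCs the library with less Pdgfc had more Plat.

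The VEGF ligands showed no common direction. Vegfa, the main angiogenic ligand and a known target of hypoxia signalling (chr17:46016993-46032369), had 77.5 CPM in P3 DPCs, 68.1 in P9 DPCs, 103 in P3 DSCs and 147 in P9 DSCs. P9 DSCs were the highest library and both DSC libraries lay above both DPC libraries. The change was -0.19 (-0.27 to -0.11) in DPCs and 0.51 (0.45 to 0.57) in DSCs. Vegfb, a ligand of VEGFR1 (chr19:6982473-6987651), was the steadiest member, with its highest library 1.25 times its lowest. Its change was 0.24 (0.14 to 0.34) in DPCs and 0.20 (0.12 to 0.29) in DSCs, and the difference between these changes, 0.04, had an interval from -0.09 to 0.17.

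Vegfc, the lymphangiogenic ligand of VEGFR3 (chr8:54077606-54187096), had 579 counts in P3 DPCs, 227 in P9 DPCs, 404 in P3 DSCs and 688 in P9 DSCs. The cell types were in the reverse order at P3 and P9. The change with passage was -1.31 (-1.54 to -1.09) in DPCs and 0.50 (0.32 to 0.68) in DSCs, which gave the members' largest difference between the passage changes of the cell types, at -1.81 (-2.09 to -1.52). Vegfd, another VEGFR3 ligand, had 513, 4624, 547 and 1570 counts in the order P3 DPCs, P9 DPCs, P3 DSCs and P9 DSCs. Its change was 3.20 (3.08 to 3.34) in DPCs and 1.25 (1.11 to 1.40) in DSCs, so that the pair of VEGFR3 ligands differed in direction in DPCs. Pgf, the placental growth factor, had 121 counts in P3 DPCs and 0 in P9 DPCs, at least 39.3-fold lower, and 446 and 190 counts in DSCs. Vegfd made up 8.30% of the summed VEGF ligand FPKM in P3 DPCs and 46.5% in P9 DPCs, while the sum went from 76.6 to 125 FPKM.

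Across the members, the passage change had opposite signs in DPCs and DSCs for 4, namely Pdgfa, Vegfa, Vegfc and Angpt1, against 29.4% of all tested genes, and for Angpt1 both intervals included 0. The passage changes of the cell types differed by at least 2-fold for 3 members, Pdgfa, Pdgfc and Vegfc, against 24.1% of all genes.

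**Figure D3:**
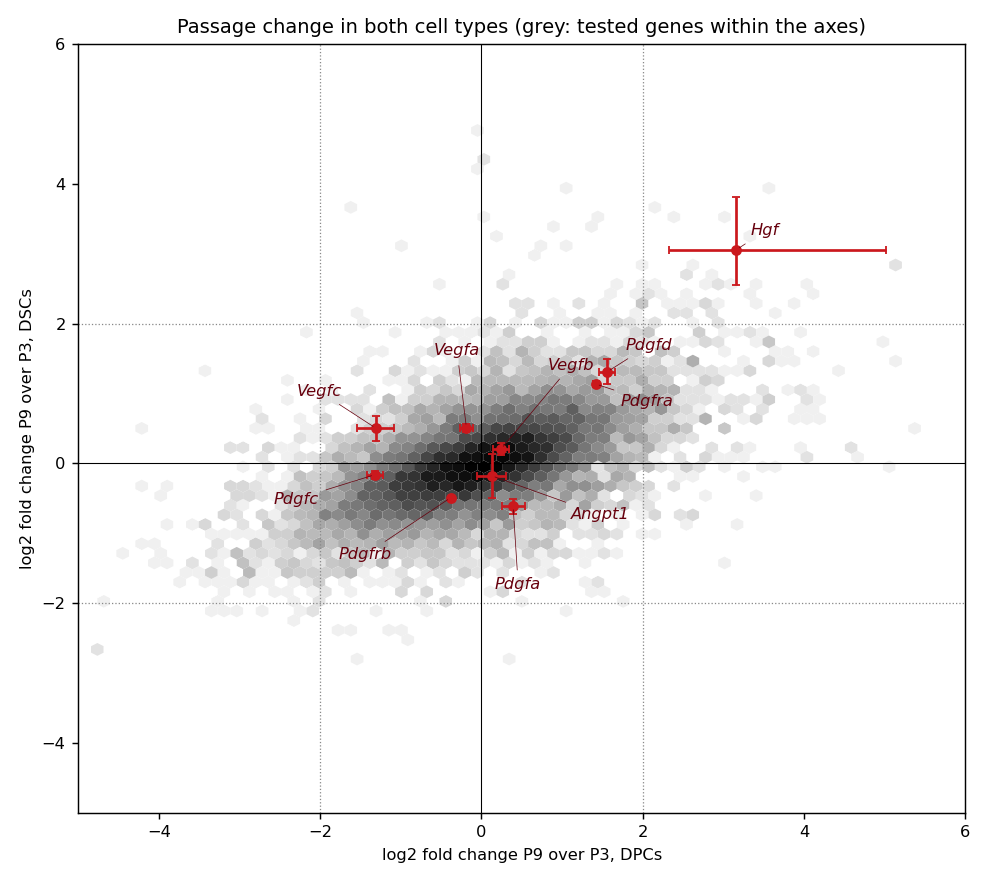
Log2 fold change of P9 over P3 in DPCs (x axis) and DSCs (y axis); grey hexagons show tested genes on a log colour scale, with 91 of 16734 outside the axes, red points are the 10 members with 95% counting intervals, and dotted lines mark 4-fold. Hgf lies past both dotted lines, Pdgfd and Pdgfra lie near the diagonal above 1 on both axes, and Vegfc lies at -1.31 and 0.50.

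Receptors of the VEGF ligands were mostly low, apart from the neuropilins. Nrp2, a co-receptor also used by semaphorins, made up between 70.3% and 88.3% of the summed FPKM of Flt1, Kdr, Flt4, Nrp1 and Nrp2. Kdr, which encodes VEGFR2, the main endothelial receptor, had 2, 0, 26 and 5 counts. Flt1, which encodes VEGFR1, had 619, 127, 1000 and 590 counts, with a passage change of -2.23 (-2.54 to -1.97) in DPCs and -1.02 (-1.18 to -0.88) in DSCs. The summed endothelial markers, which include Kdr and Tek, also were lower at P9, at 4.11 and 1.90 CPM in DPCs and 6.60 and 2.66 CPM in DSCs. Of this sum, Tek had 1.60 and 0 CPM in P3 and P9 DPCs and 3.01 and 0.68 CPM in P3 and P9 DSCs. The marker Egfl7 went the other way, with 1.58 and 1.78 CPM in DPCs and 0.90 and 1.58 CPM in DSCs. The part of endothelial cells in the Flt1 result was not tested. Flt4, which encodes VEGFR3, was higher at P9, with changes of 1.98 (1.73 to 2.27) in DPCs and 0.84 (0.65 to 1.04) in DSCs, as was Nrp1 with 1.56 and 0.74. Adamts3, the protease that processes pro-VEGF-C, had 0 counts in P3 DPCs and 259 in P9 DPCs, at least 88.5-fold higher, and 26 and 40 in DSCs.

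Met, the HGF receptor, differed little with passage. It had 676 and 698 counts in P3 and P9 DPCs and 1058 and 997 in P3 and P9 DSCs, with changes of 0.08 (-0.07 to 0.24) and -0.35 (-0.48 to -0.22). HGF is secreted as a precursor. Of the genes for its activators, only Hgfac, Hpn and St14 were examined as such, and they had at most 22 counts in any library. Spint2, which encodes an inhibitor of these proteases, had 59, 84, 20 and 173 counts in the order P3 DPCs, P9 DPCs, P3 DSCs and P9 DSCs. Its change was 0.53 (0.05 to 1.05) in DPCs and 2.73 (2.18 to 3.59) in DSCs.

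Angpt1, the vessel-stabilising ligand of TIE2 (chr15:42424723-42676977), differed between the cell types and not detectably with passage. It had 13.2 CPM in P3 DPCs, 14.4 in P9 DPCs, 4.35 in P3 DSCs and 3.84 in P9 DSCs, and both DPC libraries were above both DSC libraries. The ratio of DPCs to DSCs on the log2 scale was 1.59 (1.34 to 1.87) at P3 and 1.89 (1.66 to 2.16) at P9, whereas the passage change was 0.13 (-0.06 to 0.31) in DPCs and -0.18 (-0.50 to 0.14) in DSCs. Angpt2, a context-dependent antagonist, was also higher in DPCs, by 2.37 at P3 and 3.62 at P9. Angpt4 had the reverse order, with 413 and 229 counts in P3 and P9 DPCs and 3135 and 4570 in P3 and P9 DSCs. Of the summed angiopoietin FPKM, Angpt4 thus made up 95.8% and 96.7% in DSCs and 43.3% and 20.5% in DPCs.

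The angiopoietin receptor gene Tek, which encodes TIE2, had 59 counts in P3 DPCs and 0 in P9 DPCs, at least 19.2-fold lower, and 114 and 31 in P3 and P9 DSCs. Ptprb, which encodes the phosphatase that dampens TIE2, had 2655, 261, 232 and 27 counts. Its passage change was nearly equal in the cell types, at -3.30 (-3.50 to -3.13) in DPCs and -3.26 (-4.0 to -2.79) in DSCs. Of the endothelial markers, Pecam1 had 12, 4, 23 and 9 counts in the same order, whereas Egfl7 had 58, 64, 34 and 72. The part of endothelial cells in the Tek and Ptprb results was not tested.

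**Figure D4:**
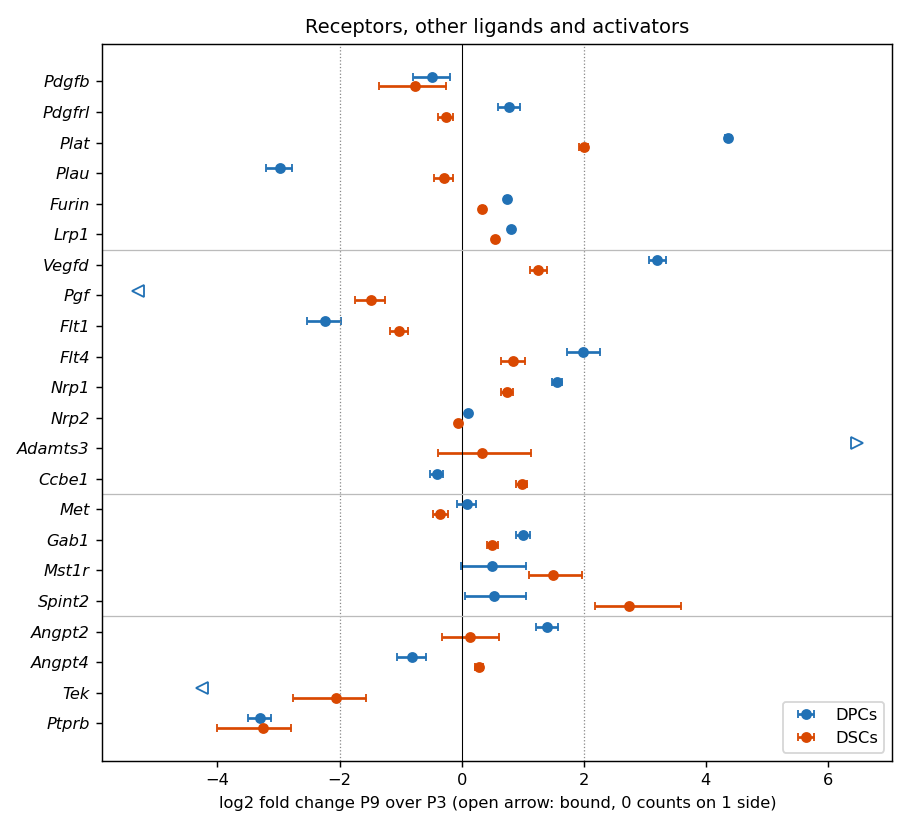
Log2 fold change of P9 over P3 in DPCs (blue) and DSCs (orange) for other ligands, receptors, activators and inhibitors of the 4 systems, divided by grey lines into PDGF, VEGF, HGF and angiopoietin genes, with 95% counting intervals; open arrows are bounds where 1 library had 0 counts, and dotted lines mark 4-fold. Plat and Vegfd lie above the 4-fold line in DPCs, Plau, Flt1 and Ptprb below it, and Met near 0.

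As lists, the 4 systems held 30 genes besides the members, of which 23 were tested. In DPCs 3 were 4-fold higher and 5 lower at P9, against 5.58% and 4.36% of all tested genes, and in DSCs 1 was higher and 2 were lower, against 2.67% and 1.16%. Their median change was 0.53 in DPCs and 0.28 in DSCs, beside 0.03 and 0.00 over all genes.

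The second comparison was that of DPCs with DSCs at the same passage. At P3 and at P9, 0 members differed 4-fold between the cell types, against 4.3% and 6.42% of all tested genes. At P3, Pdgfd, Pdgfra and Angpt1 were 2-fold higher in DPCs, against 5.43% of genes, and Pdgfa and Hgf 2-fold lower, against 7.86%. At P9 the same 3 members were 2-fold higher in DPCs, against 9.11% of genes, and Pdgfc, Vegfa, Vegfc and Hgf 2-fold lower, against 11.0%. At both passages, 3 of 10 members were 2-fold higher in DPCs, where 2.04% of all genes were, and 1, Hgf, was 2-fold lower, where 3.32% were. Nearest to 4-fold at P9 was Pdgfd, with a log2 ratio of 1.95 (1.85 to 2.05), and it passed 4-fold there when libraries were scaled by their total counts. Its ratio at P3 was 1.70 (1.53 to 1.88), beside -1.73 for Hgf. For Pdgfc the ratio was -0.62 (-0.68 to -0.55) at P3 and -1.78 (-1.87 to -1.69) at P9, and for Vegfa it was -0.41 (-0.48 to -0.34) and -1.11 (-1.18 to -1.04). For Hgf, the ratio at P3 rested on 6 against 25 counts and had an interval from -3.59 to -0.70. From FPKM, the Hgf ratio was -0.88 at P3 and -1.32 at P9 with a pseudocount of 0.1, and -0.16 and -0.73 with a pseudocount of 1, so that Hgf was then not 2-fold lower at both passages. Vegfa at P9 was also under 2-fold from FPKM, at -0.92 with a pseudocount of 0.1 and -0.90 with a pseudocount of 1. Vegfc at P9 was under 2-fold only with a pseudocount of 1, at -0.89. The median of the members was -0.25 at P3 and -0.18 at P9, beside 0.00 and -0.01 over all genes.

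Genes downstream of the receptors were grouped by function. Of 26 genes for shared signalling intermediates from adaptors to kinases, 0 differed 4-fold with passage in either cell type, against 5.58% of all genes higher and 4.36% lower in DPCs and 2.67% and 1.16% in DSCs. At 2-fold, 3 were higher and 2 lower in DPCs, against 16.1% and 15.0% of all genes. Among those with the greatest difference in DPCs, the kinase gene Braf had a change of 1.36, the PI3-kinase subunit gene Pik3cb 1.26 and the adaptor gene Shc1 -1.18. The corresponding values in DSCs were 0.58, 0.62 and -0.06. Of 14 genes that ERK signalling is known to induce, 2 were 4-fold higher at P9 in DPCs, Ier3 with 2.19 and Fos with 2.0, and Dusp4, which encodes a phosphatase of ERK, was 4-fold lower with -2.58, set against the same 5.58% and 4.36%. In DSCs 0 of these 14 differed 4-fold, with Fos at 1.50, Dusp6 at 1.33 and Spry4 at 1.25. Their median was 0.09 in DPCs and 0.55 in DSCs.

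Genes of the hypoxia response, which Vegfa belongs to, had medians of opposite sign in the cell types. Over 14 such genes the median change was -0.47 in DPCs and 0.26 in DSCs, beside 0.03 and 0.00 over all genes. Hif1a, which encodes the oxygen-regulated factor itself, was higher at P9 in both, with 2.08 in DPCs and 1.03 in DSCs. Its target Egln3, a prolyl hydroxylase gene, was 4-fold lower in DPCs with -2.21, and the targets Adm and Bnip3 were 2-fold higher in DSCs with 1.18 and 1.17. Proliferation genes were lower at P9, with medians over 10 genes of -2.0 in DPCs and -1.25 in DSCs. Of these, 5 were 4-fold lower in DPCs, against 4.36% of all genes, among them Ccnb1 with -3.45, Bub1 with -3.02 and Plk1 with -2.94. In DSCs 0 were 4-fold lower, against 1.16% of all genes, and 6 were 2-fold lower, against 6.21%. The part of hypoxia signalling in the Vegfa changes, and of cell cycle differences in the members' passage changes, was not tested.

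An additive model of cell type and passage was fitted across all genes, although the 1 residual degree of freedom reflects how the cell types' responses differ and not replicates. By edgeR's quasi-likelihood test with Benjamini-Hochberg adjustment, 0.0% of genes were called for passage and 0.0% for cell type, and at an unadjusted p under 0.05 these were 16.9% and 8.25%. DESeq2 called 5.76% of genes for passage and 2.95% for cell type, and 16.8% and 8.35% unadjusted. Among the members, the lowest adjusted p for passage by edgeR was 0.188 for Pdgfd and Hgf and 0.192 for Pdgfra, while DESeq2 gave adjusted p = 0.00102, 0.00193 and 0.000829. For cell type, edgeR gave adjusted p = 0.155 for Pdgfd, 0.221 for Angpt1 and 0.225 for Pdgfra. DESeq2 gave 7.305e-06, 0.00504 and 6.47e-05 for these in turn. The other members passed the threshold of 0.05 by neither test for either term.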

How the data were processed

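RNA was measured in 4 libraries, 1 for each combination of cell type (DPCs or DSCs) and passage (3 or 9), grouped by the labels. The authors deposited raw counts per gene, which were not normalized, and FPKM, which the authors scaled by transcript length and by library size. The submitters' processing notes name Bowtie 0.12.2 and the builds mm8 and mm9. Deposited positions match GRCm38, however, since 94.1% of the 51633 IDs found in GENCODE M21 had the same position. The counting program and its use of strand were not given in the sources used here. The labels name the TruSeq kit, whereas the study's methods for mRNA sequencing describe poly-T selection with another kit. Even counts were in excess (1339 genes with 2 counts against 583 with 3 in P3 DPCs), a pattern that counting both mates of a pair would give. Intervals were therefore also computed from halved counts, for which lower bounds on folds would be halved too.

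Counts were scaled by TMM in edgeR 4.0.16 (R 4.3.3, limma 3.58.1), and genes with a mean count of at least 10 were tested. Fold changes compare log2 CPM (prior count 2), beside exact Clopper-Pearson 95% intervals for how the reads of 2 libraries divide between them. The interval of a difference between passage changes is a Wald interval from the 4 counts. A count of 0 allows up to 3 counts, or between 0.0659 and 0.0837 CPM, and folds against 0 are bounds set by this floor. Levels of different genes were compared in FPKM. The study's 4-fold threshold and a 2-fold threshold describe sizes and are not tests. The additive model used edgeR's quasi-likelihood test, with DESeq2 1.42.0 as an alternative. Other scalings, prior counts, count minimums and FPKM were tried as alternatives.

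Genes named are the members, the main receptors, partner genes that differed 4-fold in any comparison, and at most 3 genes per other list and passage comparison with the largest change. Pdgfb, the protease genes with few counts and the marker genes are named outside this rule, after their values were seen. The members and lists were chosen with earlier results of these data known. Sequences are from RefSeq.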

Additional observations from a re-analysis of the deposited data

Results flagged for a closer look

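For 3 members the passage change pointed in opposite directions in the cell types, with both counting intervals excluding 0. Pdgfa had a log2 fold change of 0.39 in DPCs and -0.61 in DSCs, Vegfa had -0.19 and 0.51, and Vegfc had -1.31 and 0.50. For Pdgfa, reads of the opposite-strand gene 6330403L08Rik, which overlaps 26.1% of its exonic bases, could not be separated. Vegfc also stood in opposite orders between the cell types, with a log2 ratio of DPCs to DSCs of 0.56 at P3 and -1.25 at P9. With 1 library per group, none of these differences was tested against replicate spread.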

How the results depend on the processing

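With 9 alternatives (8 for Hgf), the 40 fold changes of the members kept their sign, except that of DPCs over DSCs at P9 for Pdgfa, in 1 of 9, and for Vegfb, in 3 of 9, both with intervals that included 0. Of 356 member values under an alternative, 299 stayed within counting error and 57 moved. The change of Hgf ranged from 0.63 to 3.42 in DPCs and from 1.20 to 3.13 in DSCs, lowest on the FPKM scale with a pseudocount of 1, and that of Pdgfra in DSCs from 0.86 to 1.14. With halved counts, 35 of 40 intervals excluded 0 against 36 with the counts as deposited, and the interval lost was that of Vegfb at P3. No paired analysis was possible because each group is 1 library and the labels carry no replicate numbers, so the additive model pairs cell types and not replicates.

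Members 4-fold different at P9 numbered 1, Pdgfd, with total counts or with FPKM and a pseudocount of 0.1, against 0. A minimum mean count of 100, which leaves Hgf untested, or FPKM with a pseudocount of 1 left 0 members 4-fold different with passage in DPCs and 0 in DSCs, and the latter left 4 members 2-fold different at P9 against 7. In the order DPC passage, DSC passage, P3 and P9, genes 4-fold different numbered 1663, 640, 719 and 1074. They were 2622, 1254, 1319 and 1805 with no minimum, 758, 210, 301 and 458 with a minimum of 100, and 354, 72, 96 and 211 with FPKM and a pseudocount of 1. A prior count of 10 gave 339, 400 and 712 for the last 3, and FPKM with a pseudocount of 0.1 gave 350 and 392 for DSC passage and P3. Genes 2-fold different numbered 5210, 2470, 2225 and 3359, with 9280, 5217, 5377 and 6559 for no minimum, 2965, 1119, 982 and 1709 for a minimum of 100, and 2444, 685, 649 and 1250 for FPKM with a pseudocount of 1. The last setting raised the share of higher genes among those 4-fold different from 35.5% to 46.9% at P3 and from 39.0% to 50.2% at P9. FPKM with a pseudocount of 0.1 put the median of all genes at P9 at 0.09 against -0.01. The additive model called 0 genes for passage and cell type with edgeR (2822 and 1381 unadjusted), 964 and 494 with DESeq2, and 5 for cell type with DESeq2's size factors in edgeR. The cause of the difference between the tools was not tested.

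As shares of raw counts, in the order P3 DPCs, P9 DPCs, P3 DSCs and P9 DSCs, Pdgfra was 19.3%, 45.4%, 6.82% and 18.4% of receptors, Pdgfc 62.0%, 23.5%, 72.4% and 70.8% of PDGF ligands, and Vegfa 50.4%, 26.7%, 55.2% and 57.7% of VEGF ligands. Pdgfd was 57.0% in P9 DPCs, and Vegfd 9.07%, 50.6% and 7.71% in the first 3. Depth limits Hgf in P3 DPCs, Kdr and the HGF activator genes Hgfac, Hpn and St14.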
